A study of Drosophila melanogaster with 8 samples.

Results

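The genes described here encode chaperones of the endoplasmic reticulum (ER) and components of the unfolded protein response in the heads of adult Drosophila melanogaster. They were chosen by name, as the rows of the deposited gene count table for Hsc70-3, Gp93, Pdi, Calr, Cnx99A, Edem1, Ire1, PEK, Xbp1 and crc. All 10 genes were found among the 17518 named genes of the table, and all 10 passed the filter on low counts that left 12048 genes for testing. RNA was sequenced from heads of w1118 males, aged 1 to 3 days, a white-eyed laboratory strain that both groups shared. Of 8 samples, each of 30 flies, 4 came from flies given food and 4 from flies starved for 1 day. The labels name no transgene or further treatment, each sample is a pool of flies, and a head sample holds brain, eye, fat body, muscle and other tissues together.

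Proteins that enter the secretory pathway fold inside the ER, where chaperones bind them, disulphide isomerases join their cysteines and lectins retain those whose sugars mark them as unfinished. When unfolded proteins build up, sensors in the ER membrane start the unfolded protein response. Ire1 removes an unusual intron from Xbp1 mRNA so that an active transcription factor is made, and PEK, the fly PERK, phosphorylates eIF2alpha, which slows translation in general while that of crc, the fly ATF4, increases. Both transcription factors are known to raise the expression of genes that help the ER to cope, among them chaperone genes.

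Under starvation the mRNA of 4 of the 5 chaperone, isomerase and lectin genes was lower and that of the sensor Ire1 was higher. Relative to the mean on food, Pdi fell by 48.8%, Gp93 fell by 40.6%, Calr fell by 34.8% and Hsc70-3 fell by 31.1%, while Ire1 rose by 21.2%. The transcription factor gene crc also fell by 19.6%, and Cnx99A, Edem1, PEK and Xbp1 did not pass the test. The call of crc was lost in some other settings. It was also lost once the counts of an overlapping gene were taken off (edgeR adjusted p = 0.14), as given further on. In all, 6 of the 10 genes passed the quasi-likelihood test of edgeR at 0.05, after Benjamini-Hochberg adjustment across all genes tested, 1 of them higher and 5 lower under starvation. Of all genes tested, 26.7% passed and 16.7% passed and were lower, with 1210 of 12048 higher, so that the share of these genes that fell lay above that of all genes. Their median log2 fold change was -0.28, against -0.01 over all genes tested. The upper-quartile scaling moved the median of all genes to 0.10, and with it 4 of the 10 genes still fell and 1 rose. None of the 10 was called at a 2-fold change, where 6.30% of all genes tested were called, and DESeq2 also called 0 at 2-fold. An unadjusted p under 0.05 in edgeR was found for 7 of the 10, against 4463 of all 12048 genes tested. The 4 starvation libraries lay entirely above the 4 food libraries for 1 of these genes and entirely below them for 6, against 12.6% and 18.6% of all genes tested (31.2% in either direction).

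**Figure D1:**
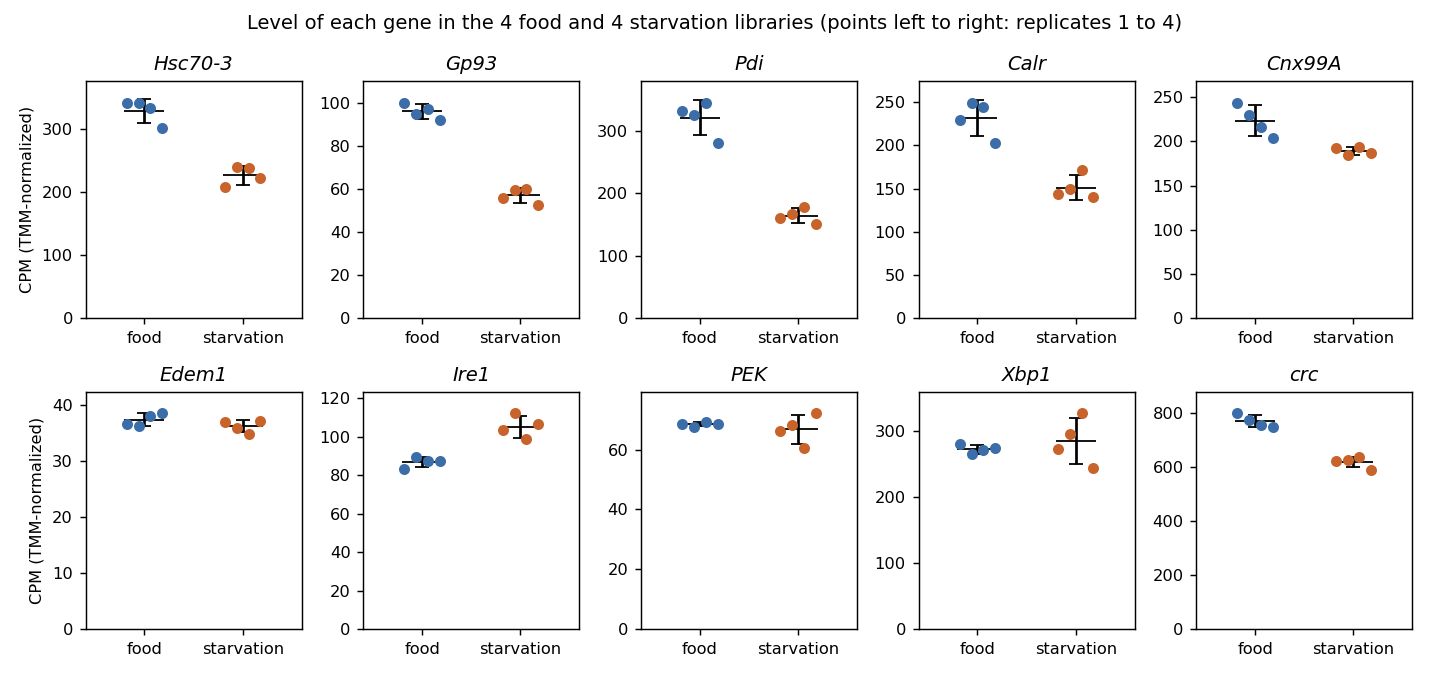
Level of each of the 10 genes in each library, in CPM (counts scaled to a fixed library total after TMM normalisation) on a linear axis that starts at 0, with food (blue) and starvation (orange) libraries side by side, replicates 1 to 4 from left to right, horizontal lines at the means and bars of 1 SD. All starvation points of Hsc70-3, Gp93, Pdi, Calr, Cnx99A and crc lie below all food points, those of Ire1 lie above them, and those of Edem1, PEK and Xbp1 overlap.

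Library totals lay between 47936038 and 53168449 counts, which gave between 1691 counts (Edem1) and 39217 counts (crc) per library for these genes. One library stood apart. The 10 highest genes held 25.6% of all counts in starvation replicate 3 (17.75% to 20.3% elsewhere), and transcripts of the mitochondrial genome held 21.9% (14.1% to 16.6% elsewhere). Its log2 levels correlated with those of the other starved libraries at 0.9849 to 0.9885, against 0.994 to 0.9958 among the others. Its deviations also ran with exonic length, as given further on. Without starvation replicate 3, 6 of the genes described here fell, 1 rose and 1, Pdi, passed 2-fold. Because the samples were separate pools of flies, p-values describe the spread between such pools. In bulk RNA of a whole head, fewer cells of a type and less RNA per cell cannot be told apart.

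Hsc70-3, the fly BiP, is the Hsp70 of the ER lumen, binds newly made chains and holds the sensors inactive in their resting state. Its gene lies on X:11801696-11807117 of release 6 of the genome, the coordinates given in the deposited table. Its level was 339.95, 341, 332 and 300.2 CPM in the food libraries and 207, 239, 237 and 221 CPM in the starvation libraries. The conditions did not overlap, and the highest starved library stood below the lowest fed one by more than the standard deviation (SD) of either group. The mean went from 328 ± 19.2 CPM to 226 ± 15.0 CPM (SD, n = 4 each), a log2 fold change of -0.54 (SE 0.085, 95% interval -0.72 to -0.35, edgeR adjusted p = 8.1e-04).

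Gp93, the fly GRP94, is the Hsp90 of the ER and folds a narrower set of secreted and membrane proteins (3R:27948711-27952151). It was measured at 100.27, 95.05, 97.2 and 92.1 CPM on food and at 55.9, 59.6, 60.2 and 52.6 CPM under starvation. Replicates were tight in both conditions and the groups lay far apart. The log2 fold change was -0.75 (SE 0.071, edgeR adjusted p = 2.5e-05), and it stayed between -0.78 and -0.63 under all 19 alternative settings.

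Pdi encodes protein disulphide isomerase, which makes and rearranges disulphide bonds (3L:15137738-15142840). Food libraries held 332, 326, 345 and 281 CPM, and starvation libraries 159.8, 168, 178 and 152 CPM. The starved levels ran from 47.2% to 55.6% of the fed mean, so each starved sample was close to a halving. Means were 321 ± 27.9 and 164 ± 11.4 CPM (SD, n = 4 each), and the log2 fold change of -0.97 (SE 0.092, 95% interval -1.17 to -0.76, edgeR adjusted p = 2.9e-05) was the largest among the 10 genes. It passed 2-fold when food replicate 4 or starvation replicate 3 was left out (log2 fold change as far as -1.02).

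Calr encodes calreticulin, the soluble lectin chaperone of the ER, which binds calcium and glycoproteins that carry a single glucose (3R:9628691-9630851). Calr stood at 229, 249, 245 and 203 CPM on food and at 143, 149, 172 and 139.9 CPM under starvation. The groups did not overlap, and starvation replicate 3 came closest to the fed range. The log2 fold change was -0.62 (SE 0.097, edgeR adjusted p = 8.3e-04).

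Cnx99A encodes calnexin, the membrane-bound lectin that works on the same glycoproteins as calreticulin and is required in photoreceptors for rhodopsin maturation (3R:29315254-29319644). It measured 244, 229.7, 216 and 203 CPM on food and 193, 184, 193 and 187 CPM under starvation. All starved libraries lay below all fed ones, but the difference was small and the fed libraries spread more widely (SD 17.5 CPM, against 4.41 CPM under starvation). Its log2 fold change of -0.24 (SE 0.081, 95% interval -0.41 to -0.06) narrowly missed the threshold (edgeR adjusted p = 0.051). It passed in 4 of 19 alternatives, among them DESeq2 (Cnx99A log2 fold change -0.217, adjusted p = 0.026) and the fits without food replicate 4 (0.046) or without starvation replicate 3 (0.013).

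Together, the 5 genes for chaperones, isomerase and lectins summed to 1245, 1241, 1235 and 1079.5 CPM on food and to 759, 799, 841 and 753 CPM under starvation, a drop of the mean by 34.4%. Food replicate 4 was the lowest fed library for 5 of these 5 genes and starvation replicate 3 the highest starved library for 4 of them, so the libraries shifted together within a condition as well. Between the conditions, markers of fat body, a secretory tissue, also fell. The summed level of 12 fat body markers went from between 5791 and 9704 CPM on food to between 561 and 769.96 CPM under starvation, and 9 of the 11 markers tested fell. Markers of glia and hemocytes fell too, with values given further on. The part of these tissues in the lower chaperone levels was not tested.

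**Figure D2:**
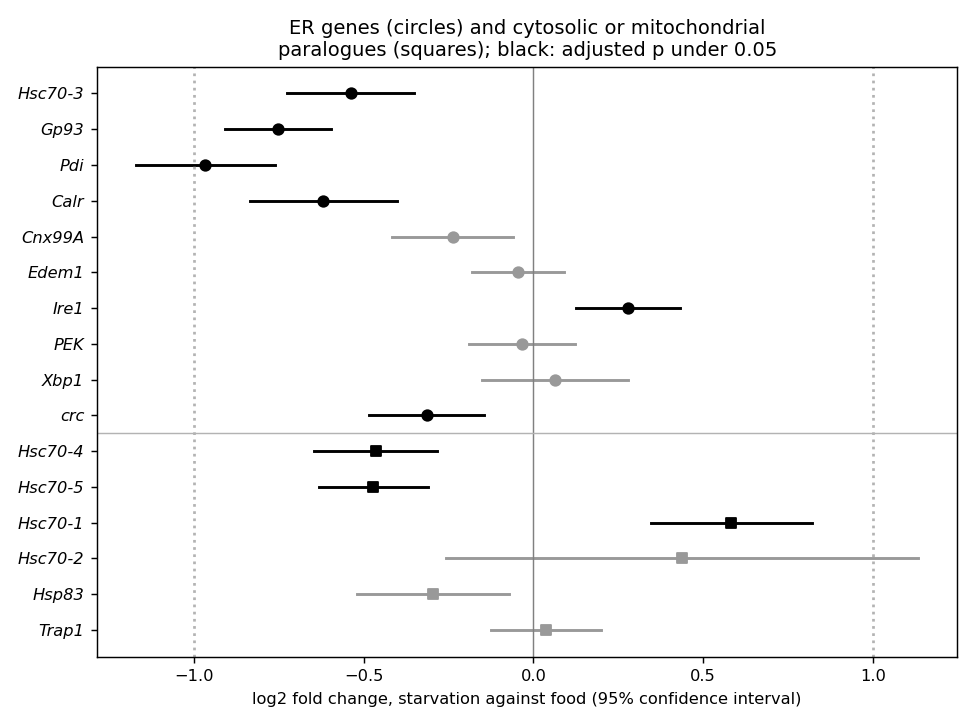
Log2 fold change of starvation against food for the 10 ER genes (circles) and 6 cytosolic or mitochondrial relatives (squares), with bars for the 95% interval from edgeR, black for an adjusted p under 0.05 and grey otherwise, and dotted lines at 2-fold. Hsc70-3, Gp93, Pdi, Calr and crc lie below 0 in black, Ire1 lies above 0 in black, and the interval of Pdi, from -1.17 to -0.76, includes a log2 fold change of -1.

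Edem1, which directs misfolded glycoproteins to degradation and is a known target of the Xbp1 branch, had no such drop (X:1903704-1908827). Its level was 36.5, 36.2, 38.1 and 38.5 CPM on food and 37.0, 35.9, 34.7 and 37.2 CPM under starvation. The groups overlapped, with means of 37.3 ± 1.118 and 36.2 ± 1.122 CPM (SD, n = 4 each). The 95% interval of its log2 fold change ran from -0.18 to 0.09 (edgeR adjusted p = 0.65), so a change beyond that range was not supported by these libraries.

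Of the sensors, only Ire1 passed the test. Ire1 is a kinase and endoribonuclease of the ER membrane (3R:19853908-19861291). Its level was 83.2, 89.4, 87.7 and 87.3 CPM on food and 104, 112, 98.8 and 107 CPM under starvation. Every starved library exceeded every fed one, and the lowest starved library was replicate 3. Means were 86.9 ± 2.604 and 105 ± 5.65 CPM (SD, n = 4 each), with a log2 fold change of 0.28 (SE 0.069, 95% interval 0.12 to 0.43, edgeR adjusted p = 0.013). The rise passed under all 19 alternatives, which leave out the test against 2-fold, with log2 fold changes between 0.25 and 0.39. Its highest edgeR adjusted p, without food replicate 1, lay so close under the threshold that it rounds to 0.05.

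PEK is the kinase that passes ER stress on to eIF2alpha (3R:5458563-5464753). It was measured at 68.4, 67.5, 69.1 and 68.6 CPM on food and at 66.2, 68.3, 60.5 and 72.1 CPM under starvation. The fed libraries were nearly identical, and the starved ones spread to either side of them. The log2 fold change was -0.03 (95% interval -0.19 to 0.12, edgeR adjusted p = 0.78), and its sign turned with upper-quartile scaling (0.08) and without starvation replicate 3 (0.01), without passing the test in either. Whether Ire1 and PEK changed by different amounts was not tested.

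Xbp1 encodes the transcription factor whose mRNA Ire1 splices (2R:21143545-21145750). The gene counts do not separate its spliced and unspliced forms, so they give the amount of Xbp1 mRNA and not its activation. Fed libraries held 281, 265, 271 and 275 CPM, and starved libraries 272, 296, 327 and 244 CPM. The starved values ranged on both sides of the fed ones, with an SD of 35.2 CPM against 6.78 CPM. The log2 fold change was 0.06 (95% interval -0.15 to 0.28, edgeR adjusted p = 0.70) and was -0.01 without starvation replicate 3, the highest library.

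The gene crc encodes the transcription factor made more when eIF2alpha is phosphorylated, and its control is known to be largely translational, which mRNA counts do not record (2L:21310866-21319527). Its level was 797, 772, 753 and 747.5 CPM on food and 619.98, 624, 636 and 589.6 CPM under starvation. The groups did not overlap, and each starved library lay between 76.8% and 82.9% of the fed mean. The log2 fold change was -0.31 (SE 0.077, edgeR adjusted p = 0.012), but the call was lost when starvation replicate 1 or 4 was left out (adjusted p = 0.051 and 0.056) and under upper-quartile scaling (log2 fold change -0.20, adjusted p = 0.082).

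The crc counts overlap with those of another gene model. CG46314 (2L:21314360-21319527) lies wholly within crc, with a synonym in RefSeq that refers to the crc 5' untranslated region, and whether the counting used strand is not given in the sources used here. CG46314 was listed with 597 ± 21.5 CPM on food and 467 ± 27.8 CPM under starvation (SD, n = 4 each) and fell as well (log2 fold change -0.35, SE 0.081, edgeR adjusted p = 0.0080), a call lost with upper-quartile scaling (adjusted p = 0.058). After its counts were taken off those of crc, a step added with the data in view, crc stood at 169, 179.6, 166 and 167 CPM on food and at 153, 162, 132 and 153 CPM under starvation. The log2 fold change was then -0.18 and did not pass (edgeR adjusted p = 0.14), so the call for crc did not hold for counts beyond those listed for CG46314.

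Levels of different genes were compared as CPM per kilobase of exonic length. The crc level includes the stretch shared with CG46314, so its place in the order carries the same doubt as its counts. On food crc was listed first of the 10 (224 ± 6.58 CPM per kilobase, SD, n = 4), followed by Calr (138), Pdi (138), Xbp1 (127), Hsc70-3 (91.5), Cnx99A (79.9), Gp93 (33.8), Ire1 (21.5), PEK (14.0) and Edem1 (7.86). The library ranges of Calr and Pdi, of Pdi and Xbp1, and of Hsc70-3 and Cnx99A overlapped, so these neighbours in the order were not separated. Under starvation crc was again listed first (180.4 ± 5.79 CPM per kilobase), and Xbp1 (133) came above Calr (90.0) and Pdi (70.6). Next stood Cnx99A (67.75) and Hsc70-3 (63.0), with Pdi and Cnx99A, and Cnx99A and Hsc70-3, overlapping as neighbours. Ire1 (26.1) then exceeded Gp93 (20.1), the reverse of their order on food, and PEK (13.7) and Edem1 (7.62) were again lowest.

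Ratios within a library, which do not depend on how libraries are scaled, were used to ask whether a gene changed by more than a related gene. For 7 pairs the log2 ratio was compared by an exact two-sided permutation test, in which 4 against 4 libraries cannot give a p under 0.029. It was adjusted over the 7 pairs, and the 5 pairs that reached this smallest p have an adjusted p of 0.04. The ratio of Hsc70-3 to Gp93 was 3.39, 3.59, 3.42 and 3.26 on food and 3.71, 4.01, 3.94 and 4.20 under starvation. Gp93 thus fell by more than Hsc70-3 in each starved sample relative to each fed one (log2 difference 0.21, SE 0.047, adjusted exact p = 0.04). Calr fell against Cnx99A, with ratios of 0.941, 1.09, 1.13 and 0.999 on food and 0.745, 0.809, 0.887 and 0.747 under starvation (log2 difference -0.38, SE 0.085, adjusted exact p = 0.04). The soluble and the membrane lectin therefore differed in their change.

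The ER chaperones were also set against the relatives that work elsewhere in the cell. Hsc70-4, the constitutive cytosolic Hsp70, fell by 27.5% (log2 fold change -0.46, edgeR adjusted p = 0.0017), and the ratio of Hsc70-3 to Hsc70-4 overlapped between conditions (log2 difference -0.08, SE 0.056, adjusted exact p = 0.2). Hsc70-5, the mitochondrial Hsp70, also fell (-0.47, edgeR adjusted p = 7.1e-04), whereas Hsc70-1 rose (0.58, edgeR adjusted p = 0.0022). Lower levels were thus measured for Hsc70-3 in the ER, Hsc70-4 in the cytosol and Hsc70-5 in mitochondria, but not for every Hsp70 gene. Among the Hsp90 genes, cytosolic Hsp83 had a log2 fold change of -0.30 (edgeR adjusted p = 0.052, and 0.0074 without starvation replicate 3) and mitochondrial Trap1 of 0.04 (adjusted p = 0.77). The ratio of Gp93 to Hsp83 went from 0.120, 0.104, 0.113 and 0.118 on food to 0.0926, 0.0920, 0.0798 and 0.0701 under starvation. Gp93 therefore fell by more than Hsp83 (log2 difference -0.45, SE 0.105, adjusted exact p = 0.04). Hsc70-2 was near the limit of detection, with 0.245 ± 0.0691 CPM on food and 0.333 ± 0.0339 CPM under starvation (SD, n = 4 each).

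**Figure D3:**
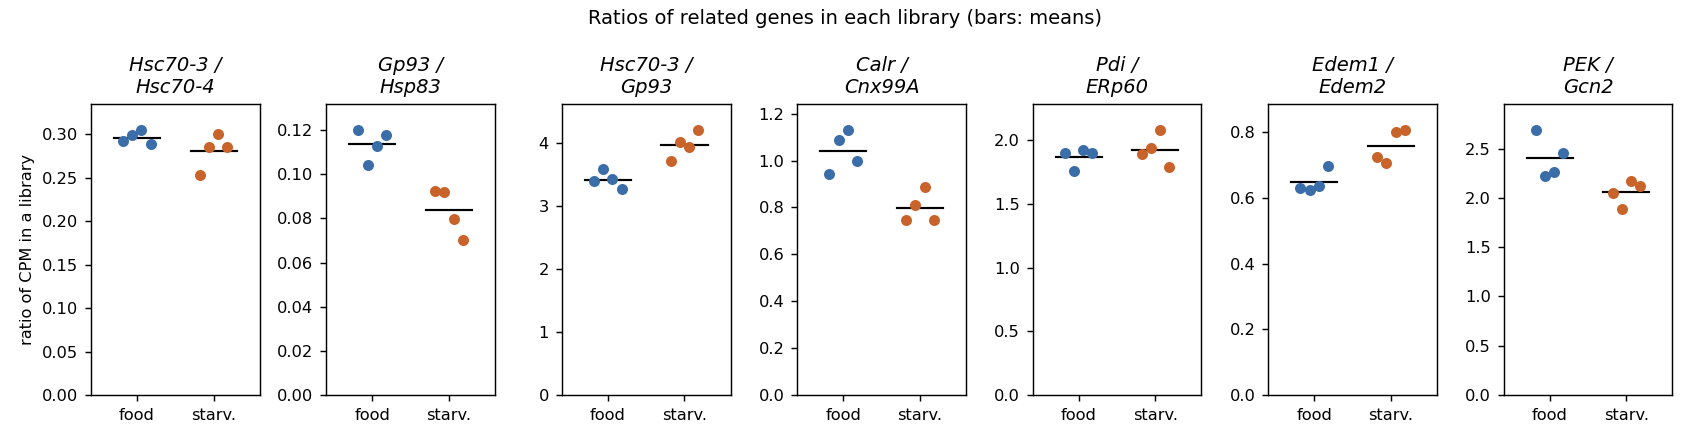
Ratio of each of 7 gene pairs in each library, as the ratio of CPM on linear axes that start at 0, with food (blue) and starvation (orange) libraries side by side and lines at the means. Starvation libraries lie entirely above food libraries for Hsc70-3 to Gp93 and Edem1 to Edem2, entirely below for Gp93 to Hsp83, Calr to Cnx99A and PEK to Gcn2, and overlap for Hsc70-3 to Hsc70-4 and Pdi to ERp60.

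ERp60, a second disulphide isomerase that partners the lectins, fell by 50.4% (172 ± 16.5 to 85.2 ± 0.871 CPM, SD, n = 4 each), and the ratio of Pdi to ERp60 overlapped between conditions (log2 difference 0.04, SE 0.053, adjusted exact p = 0.4). Edem2, the other fly EDEM measured in these pairs, fell (log2 fold change -0.27, edgeR adjusted p = 0.018), although the call was lost without food replicate 1, 2 or 3 (adjusted p = 0.052, 0.055 and 0.059) and with upper-quartile scaling (0.093). The ratio of Edem1 to Edem2 was 0.632, 0.626, 0.637 and 0.698 on food and 0.726, 0.706, 0.801 and 0.807 under starvation (log2 difference 0.23, SE 0.061, adjusted exact p = 0.04). PEK was compared with Gcn2, the eIF2alpha kinase that responds to amino acid shortage. Gcn2 itself had a log2 fold change of 0.19 (edgeR adjusted p = 0.18, and 0.022 without starvation replicate 3), and the ratio of PEK to Gcn2 fell from 2.69, 2.22, 2.26 and 2.46 to 2.05, 1.89, 2.17 and 2.12 (log2 difference -0.22, SE 0.077, adjusted exact p = 0.04). The lowest fed value, 2.22, and the highest starved value, 2.17, were close together.

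Other genes that work beside these proteins were taken from lists of textbook roles. For the counts that follow, 16.7% of all genes tested fell and 1210 of 12048 rose. Among 21 tested genes for ER folding enzymes and cochaperones, 13 fell, 2 rose and 6 did not pass, with a median log2 fold change of -0.44. In this list the share that fell lay above that of all genes, and the share that rose was close to it. The largest falls were those of shv, a DnaJ-type cochaperone (37.2 ± 3.44 to 17.5 ± 1.94 CPM, SD, n = 4 each, log2 fold change -1.09), Fkbp14, a prolyl isomerase (-1.08), and ERp60 (-1.01), and these 3 genes were called at 2-fold. None of them reached 2-fold with upper-quartile scaling (shv -0.97, Fkbp14 -0.96, ERp60 -0.89), and ERp60 also missed it with DESeq2 (-0.99) and without food replicate 2 or 3 or starvation replicate 1 or 4 (-0.99 to -0.97). Fkbp14 missed it without starvation replicate 4 (-0.97). A member that rose was ninaA, the cyclophilin that photoreceptors need to fold rhodopsin (90.1 ± 9.27 to 135 ± 31.8 CPM, log2 fold change 0.58, edgeR adjusted p = 0.013). CG10420, related to the mammalian BiP exchange factor SIL1, also passed (0.42, adjusted p = 0.044), but its libraries overlapped. The call of CG10420 was lost in most settings, with an adjusted p of 0.052 without starvation replicate 3 and up to 0.11 without food replicate 4.

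The machinery that brings chains into the ER and attaches sugars to them was mostly lower as well. Of 27 tested genes, 16 fell, 0 rose and 11 did not pass, with a median log2 fold change of -0.43. All 16 genes with an unadjusted p under 0.05 in edgeR were among those that fell, and DESeq2 also found 0 that rose and 16 that fell. Of all genes tested in edgeR, 16.7% fell and 1210 of 12048 rose. Leaving out 1 library at a time gave 13 to 21 lower genes of these 27. The largest falls belonged to CG5885 (34.2 ± 2.92 to 15.8 ± 1.98 CPM, log2 fold change -1.11) and to 2 subunits of the Sec61 channel, Sec61beta (36.8 ± 3.96 to 17.8 ± 2.72 CPM, -1.05) and Sec61alpha (120.6 ± 6.85 to 63.2 ± 3.17 CPM, -0.93).

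Genes of ER-associated degradation were mixed, with 6 of 14 lower, 2 higher and a median log2 fold change of -0.10. TER94, the ATPase that pulls substrates out of the membrane, fell from 191 ± 11.03 to 119 ± 8.80 CPM (log2 fold change -0.68), and Der-1, a subunit of the exit channel, fell by 31.6% (-0.55). Ubqn, a ubiquitin receptor, fell by 29.0% (-0.49). Npl4, a cofactor of TER94, rose instead from 50.9 ± 6.03 to 73.6 ± 6.75 CPM (log2 fold change 0.53, edgeR adjusted p = 0.0023), and Ubc6, a ubiquitin-conjugating enzyme, rose by 19.0% (0.25, edgeR adjusted p = 0.028). The call of Ubc6 was lost without food replicate 1 (adjusted p = 0.070), 2 (0.083) or 3 (0.094). It was also lost with the replicate number as a block (0.054). Without food replicate 1 or 3, 3 of the 14 genes were lower. The 16.7% of all genes that were lower comes from the fit with all 8 libraries and is no background for these fits.

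**Figure D4:**
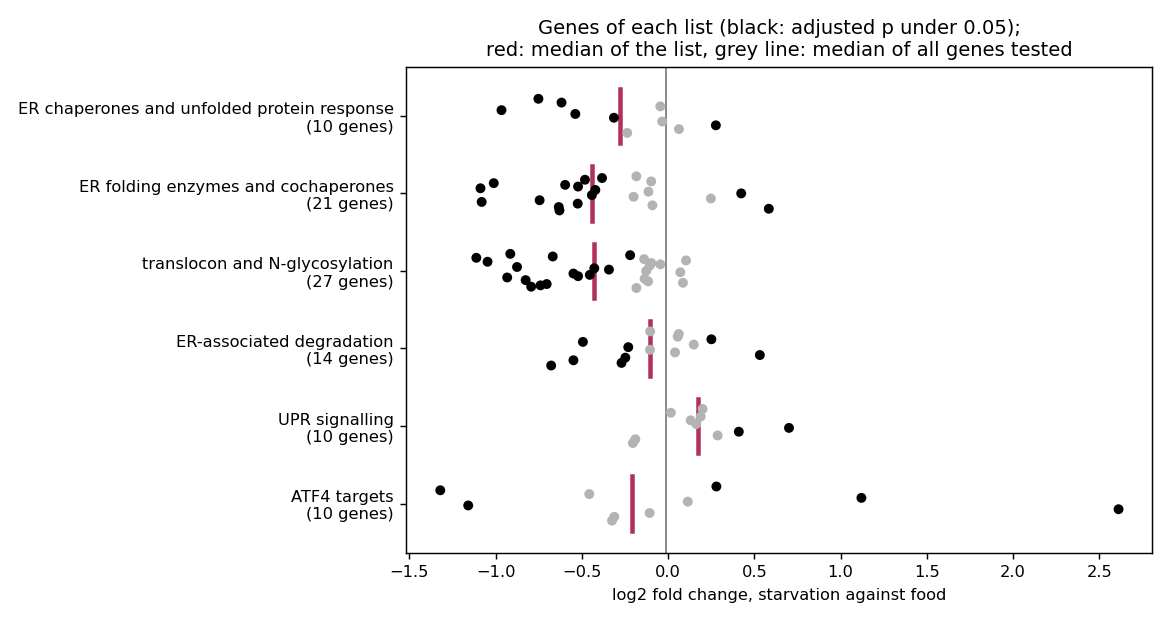
Log2 fold change of starvation against food for each tested gene of the 10 genes described and of the 5 lists of neighbouring pathways, with black points for an edgeR adjusted p under 0.05 and grey points otherwise, a red line at the median of each list and a grey line at that of all genes tested. Medians lie at -0.44 for folding enzymes, -0.43 for the translocon and glycosylation, -0.10 for degradation, 0.18 for signalling and -0.21 for targets of ATF4, against -0.01 for all genes tested.

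Of 10 further signalling genes of the unfolded protein response, 2 rose and 0 fell (a share close to the 26.7% of all genes), with a median log2 fold change of 0.18. An unadjusted p under 0.05 in edgeR was found for 3 genes, against 4463 of all 12048 genes tested. DESeq2 also called 2 higher and 0 lower. Archease, known in mammals as a cofactor of the ligase that rejoins Xbp1 mRNA, rose from 6.06 ± 0.709 to 9.85 ± 2.42 CPM (log2 fold change 0.70, edgeR adjusted p = 0.0087). S2P, the protease that releases membrane-bound transcription factors, rose from 18.3 ± 1.09 to 24.4 ± 3.13 CPM (0.41, edgeR adjusted p = 0.010). Without starvation replicate 3, 1 gene of this list fell. With upper-quartile scaling, which moved the median of all genes tested from -0.013 to 0.104, 5 of the 10 rose. The share of all genes that rose under that scaling is not given here, so this count has no background to be set against.

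Of 10 genes known as targets of ATF4 in flies or mammals, 3 rose, 2 fell and 5 did not pass. Of all genes tested, 1210 of 12048 rose and 16.7% fell. Thor, the translation inhibitor 4E-BP, rose from 66.6 ± 7.39 to 407 ± 119 CPM (SD, n = 4 each, log2 fold change 2.61, SE 0.19, edgeR adjusted p = 5.2e-06). The pseudokinase gene trbl rose from 10.3 ± 1.26 to 22.5 ± 4.96 CPM (1.12), and Sesn, encoding sestrin, rose by 21.5% (0.28, edgeR adjusted p = 0.025). The call of Sesn was lost without food replicate 2, 3 or 4 (adjusted p = 0.073, 0.065 and 0.080) or starvation replicate 2 (0.076). The 2 members that fell were AsnS, asparagine synthetase, which went from 67.7 ± 6.91 to 30.3 ± 1.04 CPM (log2 fold change -1.16) and Shmt, serine hydroxymethyltransferase, from 282 ± 50.7 to 113 ± 42.7 CPM (-1.32). Tissue markers aside, the list thus held both the largest rise and the largest fall among the genes named here. The markers Lsp2 and Hml fell further (log2 fold change -8.03 and -2.66). Without starvation replicate 3, 4 genes of the list fell. The fits without 1 library called between 2391 and 4578 genes in all. Thor and several other members are also known targets of other starvation pathways.

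The labelled tissue was checked against markers. Neuronal markers were abundant and none of 11 passed the test (summed 6839 to 7740 CPM on food and 5196 to 8100 CPM under starvation, none with an unadjusted p under 0.05 in edgeR). Photoreceptor markers, with ninaE the most abundant, summed to between 23438 and 26456 CPM on food and to between 27859 and 35232 CPM under starvation, and 4 of 9 rose. Fat body markers fell as given above, with Lsp2 the most abundant among them. All 8 glial markers, with Gs2 the most abundant, fell (2980 to 3370 CPM on food, 1801 to 2153 CPM under starvation). Of 6 hemocyte markers, with Hml the most abundant, 5 fell (94.99 to 247 CPM on food, 32.3 to 76.1 CPM under starvation). For muscle, 1 of 8 markers fell (4416 to 5297 CPM on food, 3041 to 4682 CPM under starvation), a share below that of all genes. Over all genes tested, 16.7% fell and 1210 of 12048 rose. Markers of the male reproductive tract were low (4.78 to 5.76 CPM on food, 4.25 to 5.63 CPM under starvation). No marker was at 0 in all libraries. The part of these tissues in the values of the ER genes was not tested.

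**Figure D5:**
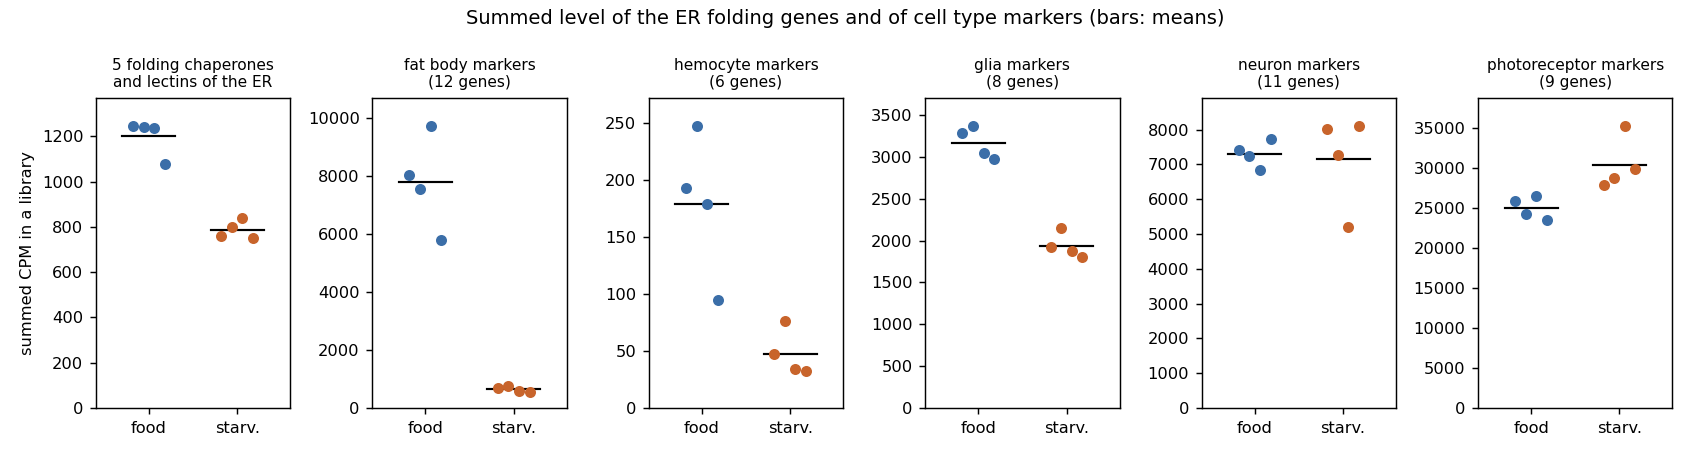
Summed CPM in each library of the 5 chaperone, isomerase and lectin genes and of 5 lists of tissue and cell type markers, on linear axes that start at 0, with food (blue) and starvation (orange) libraries side by side and lines at the means. The starvation libraries lie below the food libraries for the ER genes, fat body (561 to 769.96 against 5791 to 9704 CPM), hemocytes and glia, and above them for photoreceptors, and they overlap for neurons.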

How the data were processed

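The authors sequenced poly(A) RNA from heads of w1118 males as paired 100-base reads on 2 flow cells, mapped it with STAR 2.6.1b, merged the flow cells of each sample and deposited raw counts per gene made with ASpli, with no normalisation. Coordinates and exonic lengths are those of the deposited table (release 6). One row with no gene name, its fields shifted, was left out (0.00418% to 0.00541% of a library), and 0 columns lacked a sample. Samples were grouped by their labels.

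The deposited counts of all 8 samples were scaled by TMM, filtered with filterByExpr and fitted in edgeR 4.0.16 under R 4.3.3 (quasi-likelihood test, no covariate). The script was first tested on simulated data. P-values were adjusted (Benjamini-Hochberg) over 12048 genes, of which 3222 passed 0.05 and 759 were called at 2-fold as well. The common biological coefficient of variation was 0.138. CPM are TMM-normalised, SE come from the fold change and F statistic, and ratios used exact permutation tests (scipy 1.17.1). No 2 libraries were duplicates.

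The genes, lists and tests were chosen with earlier results of these data known. Named are the 10 genes, the genes of the pairs, the cytosolic and mitochondrial relatives, up to 3 largest rises and falls that passed in each list, and the most abundant marker. CG46314 was named because it overlaps crc. Alternatives were DESeq2 1.42.0, RLE and upper-quartile scaling, 2 other filters, edgeR's exact test, limma-voom (limma 3.58.1), a test against 2-fold, a replicate block, leaving out each library, the 10 most abundant genes or the 37 mitochondrial genes, and taking out a trend with exonic length. Sequence features of the genes were not analysed here. ERp60 lies both in a pair and in a list. Of 22 genes for folding enzymes, 1 had too few counts to be tested.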

Additional observations from a re-analysis of the deposited data

Results flagged for a closer look

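Among 112 sets of 4 libraries, 6 held a library far from the other 3, and chance alone gives about 5.6. For Hsc70-2 the level in starvation replicate 2 was 0.383 CPM, against 0.313 to 0.321 CPM in the other starved libraries. For trbl, food replicate 3 held 12.2 CPM, against 9.57 to 9.86 CPM. The ratio of Pdi to ERp60 was 1.765 in food replicate 2, against 1.90 to 1.92, and that of Edem1 to Edem2 was 0.698 in food replicate 4, against 0.626 to 0.637. The rank correlation, across genes, between a library's deviation from its group and exonic length was -0.566 in starvation replicate 3, against 0.299 to 0.390 in the other starved libraries. Starvation replicate 3 also stood apart in other measures, as given above, which the count of sets does not weigh. Muscle markers summed to 4416 CPM in food replicate 3, against 5169 to 5297 CPM.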

How the results depend on the processing

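Hsc70-3, Gp93, Pdi, Calr and Ire1 kept their direction and passed under all 19 alternatives, a count for single genes that leaves out the test against 2-fold. Cnx99A passed with DESeq2 (log2 fold change -0.217), with the length trend taken out (-0.233) and on leaving out 2 of the 8 libraries (-0.280 to -0.192 over all 8), and crc did not pass with upper-quartile scaling (-0.196), with the counts of CG46314 taken off (-0.181) and on leaving out 2 of the 8 libraries (-0.326 to -0.264). Upper-quartile scaling, which moved the median of all genes from -0.013 to 0.104, turned PEK to 0.082 and Edem1 to 0.071, gave 3 lower genes of degradation, 5 higher signalling genes and 1 higher translocon gene. With the length trend taken out, 4 signalling genes were higher and 1 lower. With no filter, with limma-voom, without the 10 most abundant genes and without the mitochondrial genes, 1 folding enzyme was higher. The test against 2-fold called 273 genes, 0 of the 10 ER genes in either direction, 0 in the lists of folding enzymes, degradation, signalling and translocon in either direction, and, of the ATF4 targets, 1 higher and 0 lower.

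Nothing in the labels ties the replicate numbers to a shared origin. The deviations of same-numbered samples correlated positively (0.0395, 0.0846, 0.188 and 0.292), and 6 of 8 samples correlated best with their own number, but food and starvation replicate 1 did not, so the numbers were not taken as pairs. With the replicate block, 3212 genes passed and no call among the 10 genes changed, while Ubc6 lost its call, which left 1 higher gene of degradation. Exact paired sign-flip tests of the 7 ratios cannot go below p = 0.125.

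Leaving out 1 library at a time gave 2391 to 4578 genes in all, 4 to 6 lower and 0 to 1 at 2-fold among the 10 genes, and 1 to 3 higher folding enzymes. It gave 1 to 2 higher and 3 to 6 lower genes of degradation. It also gave 0 to 1 lower signalling genes, 2 to 4 lower ATF4 targets and 13 to 21 lower genes of the translocon and glycosylation. Signs turned for Xbp1 (-0.008 to 0.161), PEK (-0.047 to 0.012) and Trap1 (-0.003 to 0.073), none of which passed. The cause of these changes was not tested. Of 551 values for the other named genes, 24 lost and 7 gained a call. No proteins or promoters were examined.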

Other observations

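Within the translocon and glycosylation list, the genes divided by the step they serve in the fit with all 8 libraries. The division was made after the values were seen and is given with no test. Of 8 genes for the signal recognition particle and its receptor, which bring ribosomes to the ER membrane, 0 passed in edgeR or DESeq2 and 0 had an unadjusted p under 0.05, with log2 fold changes between -0.14 and 0.09. Of 19 genes for the channel and its associated proteins, signal peptidase and oligosaccharyltransferase, 16 fell and 3 did not pass, with a median log2 fold change of -0.67. Of all genes tested, 26.7% passed and 16.7% passed and were lower. Leaving out 1 library at a time gave 13 to 21 lower genes in the whole list. The upper value exceeds 19, so some genes for the signal recognition particle or its receptor also fell in such a fit.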
